A study of Mus musculus with 9 samples.

Results

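The latent TGF-β binding proteins and the microfibril and elastic fibre proteins they are deposited with were read in SB28 gliomas of mice given BAL101553, in SB28 gliomas of control mice, and in libraries labelled astrocytes. The genes were the 10 rows of the deposited count table, out of 24421, that carry the symbols *Ltbp1*, *Ltbp2*, *Ltbp3*, *Ltbp4*, *Fbn1*, *Fbn2*, *Mfap2*, *Mfap4*, *Mfap5* and *Eln*. They were picked because *Ltbp2* and *Mfap4* were much higher after BAL101553, so for these 10 genes the values after BAL101553 and in controls are a description, without a test. SB28 is a single GFP-expressing mouse glioma line. The prodrug BAL101553, taken by mouth, releases a drug that binds microtubules. SB28 tumors grew in the brains of C57BL/6 mice that received vehicle (3 libraries, control) or BAL101553 (3 libraries). According to the study's methods, GFP-positive tumor cells were sorted from them after depletion of leukocytes by CD45 and CD11b, while the sample labels name the material whole tissue. By the paper's account, control tumors were collected earlier than treated ones, so treatment and time of growth cannot be told apart. The 3 libraries labelled astrocytes also came from brain of C57BL/6 mice and carry the treatment label BAL101553; the study's text does not describe them, and whether they hold sorted cells is not given in the sources used here.

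LTBPs are large secreted glycoproteins built of EGF-like repeats and 8-cysteine domains. LTBP-1, LTBP-3 and, less efficiently, LTBP-4 bind the propeptide of TGF-β by a disulfide bond and anchor the latent cytokine in the matrix, whereas LTBP-2 does not bind latent TGF-β. Fibrillins, their closest relatives, polymerize into microfibrils, on which the microfibril-associated glycoproteins sit and onto which elastin is laid down and cross-linked.

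Promoter sequence is shown for *Ltbp2*, the LTBP gene that differed most between the SB28 groups, beside those of *Ltbp1* and *Ltbp3*, the main LTBP genes of SB28 that carry latent TGF-β. The windows run from 250 bases before to 50 after an annotated start (RefSeq, GRCm38.p6) and lie at chr12:84876442-84876741 on the minus strand for *Ltbp2*, at chr17:75005279-75005578 on the plus strand for the first of the *Ltbp1* starts, and at chr19:5740650-5740949 on the plus strand for *Ltbp3*. Capitals mark CAGAC, the 5-base Smad box, or its reverse complement GTCTG.
Ltbp2: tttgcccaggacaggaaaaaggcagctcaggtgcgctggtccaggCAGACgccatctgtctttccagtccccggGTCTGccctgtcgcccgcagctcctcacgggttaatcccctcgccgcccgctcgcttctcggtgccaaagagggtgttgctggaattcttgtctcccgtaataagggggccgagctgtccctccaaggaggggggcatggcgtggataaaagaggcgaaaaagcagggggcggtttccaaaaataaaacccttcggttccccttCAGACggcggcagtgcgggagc
Ltbp1: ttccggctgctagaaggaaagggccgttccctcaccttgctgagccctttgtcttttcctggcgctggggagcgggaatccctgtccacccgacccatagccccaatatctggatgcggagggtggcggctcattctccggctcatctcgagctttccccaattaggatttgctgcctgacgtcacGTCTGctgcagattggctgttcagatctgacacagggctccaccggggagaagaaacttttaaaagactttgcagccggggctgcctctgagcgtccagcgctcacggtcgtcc
Ltbp3: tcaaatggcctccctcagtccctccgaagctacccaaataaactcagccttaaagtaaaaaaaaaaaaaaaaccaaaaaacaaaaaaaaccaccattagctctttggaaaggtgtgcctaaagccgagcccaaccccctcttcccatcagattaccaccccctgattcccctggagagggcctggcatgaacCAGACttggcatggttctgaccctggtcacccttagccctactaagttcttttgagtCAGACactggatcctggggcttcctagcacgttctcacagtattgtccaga
The *Ltbp2* window held 3 such matches, that of *Ltbp3* held 2 and the *Ltbp1* window shown held 1. The window at the second *Ltbp1* start, not shown, held 2. Of 32851 mouse windows of this length, 49.6% held at least 1 match, 16.2% at least 2 and 3.9% at least 3. A match is a description of the letters and not a binding site. RefSeq windows were matched to 6 of the 10 genes. The windows of *Fbn1* and *Ltbp4* held no match, and those of *Mfap2* held 0 and 1.

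Levels are CPM, read counts scaled to library depth and corrected for library composition by TMM over the 9 libraries, and are given in the order of libraries 1, 2 and 3. Between 22919523 and 34013875 reads were counted per library. In the control and BAL101553 libraries, summed CPM was at most 4.47 for 7 microglia and macrophage markers and at most 20.5 for 6 oligodendrocyte markers. In the libraries labelled astrocytes, 8 astrocyte markers summed to between 12298 and 15088 CPM, but 6 oligodendrocyte markers summed to between 10498 and 13039 CPM and the microglia and macrophage markers to between 434 and 938 CPM, so RNA of several glial cell types was present. Markers of vessels and fibroblasts were read there too. Summed CPM was 208 to 250 for 7 endothelial markers and 579 to 677 for 8 pericyte and smooth muscle markers. For 8 fibroblast markers it was 183 to 225. Fewer cells of a type and less RNA per cell cannot be told apart in bulk RNA.

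Among the LTBP genes, *Ltbp2* stood apart. *Ltbp2* (ENSMUSG00000002020.15, GENCODE vM21, mm10, chr12:84783212-84876532, minus strand), whose product joins fibrillin microfibrils without carrying TGF-β, had 14.7, 12.6 and 10.7 CPM in the control libraries. It had 88.8, 115 and 119 CPM in the BAL101553 libraries. Every BAL101553 library was above every control library by a wide margin and none stood apart within its group. The mean level was 12.7 ± 2.01 CPM in control (SD, n = 3) and 108 ± 16.4 CPM after BAL101553 (SD, n = 3), a log2 fold change of 3.09 (standard error, SE, 0.17), or 8.54-fold, from edgeR's quasi-likelihood fit. Leaving out any 1 library moved the log2 fold change only between 2.98 and 3.21. A gene on the opposite strand, *D030025P21Rik*, chosen here after its values were seen, overlaps 764 bases of *Ltbp2* exons. It had 6, 14 and 6 reads in control, 27, 20 and 36 after BAL101553 and 2, 0 and 4 in the libraries labelled astrocytes, and whether counting used strand is not given in the sources used here.

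The TGF-β-carrying LTBP genes were close to level between the SB28 groups. *Ltbp1* (chr17:75005568-75392512, plus strand), the prototype carrier of latent TGF-β1, had 635, 613 and 587 CPM in control and 697, 792 and 693 CPM after BAL101553. Its groups did not overlap, but the log2 fold change was 0.26 (SE 0.095). *Ltbp3* (chr19:5740904-5758532, plus strand), which is needed for TGF-β secretion in bone, had 436, 579 and 476 CPM in control and 529, 323 and 474 CPM after BAL101553. The groups overlapped, with a log2 fold change of -0.16 (SE 0.19) that was 0.02 without BAL101553 library 2. *Ltbp4* (chr7:27305136-27337692, minus strand), which also guides fibulin-5 and tropoelastin onto microfibrils, had 151, 124 and 181 CPM in control and 95.6, 125 and 150 CPM after BAL101553. Here too the groups overlapped, with a log2 fold change of -0.29 (SE 0.19).

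**Figure D1:**
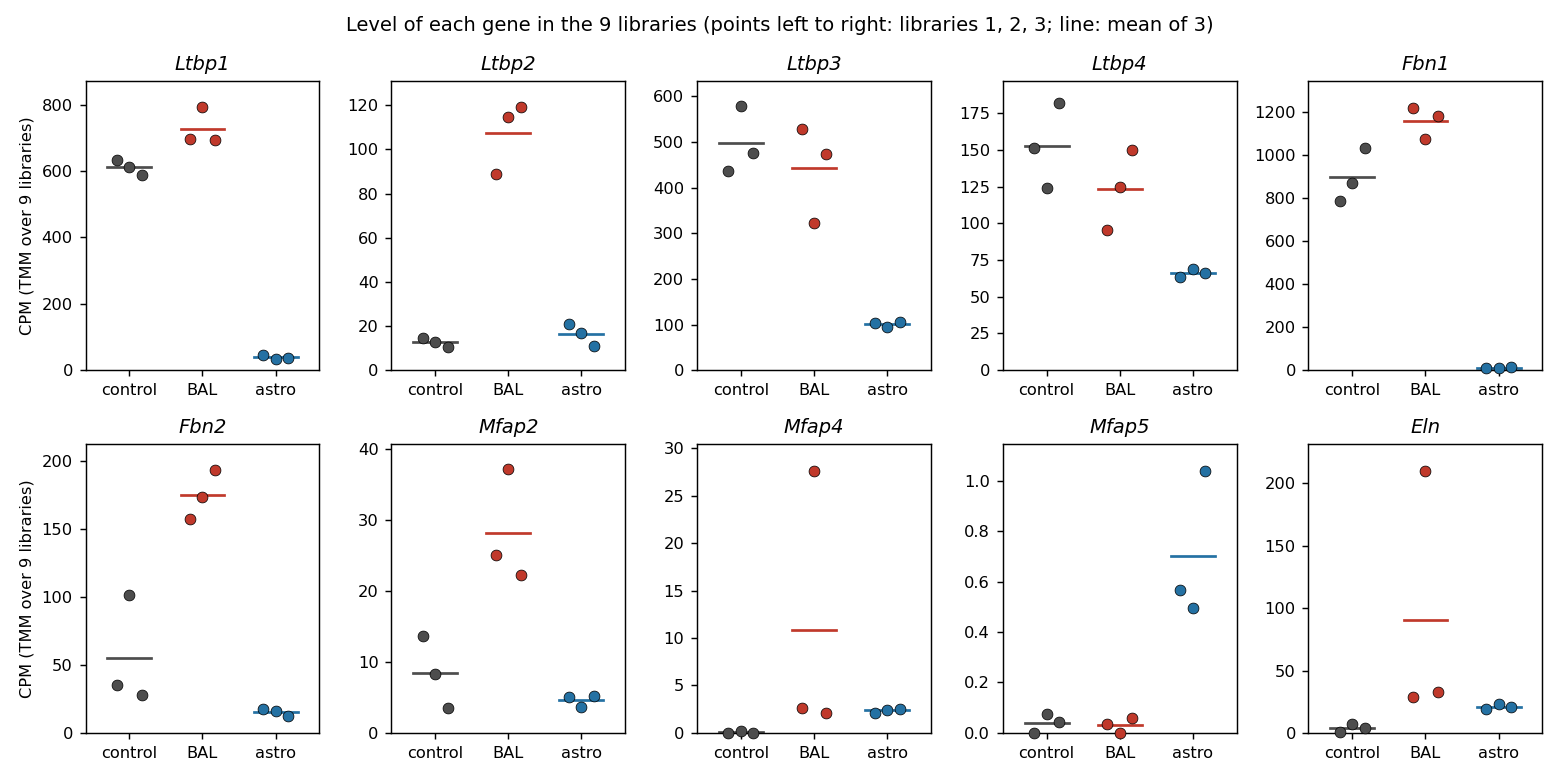
Level of each gene in CPM (TMM over 9 libraries, linear axis from 0, a scale of its own for each gene) in the control, BAL101553 (BAL) and astrocytes (astro) libraries; points are libraries 1 to 3 from left to right and the line is their mean. *Ltbp2* and *Fbn2* were high in all 3 BAL101553 libraries, whereas *Mfap4* and *Eln* peaked in BAL101553 library 2.

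Expressed per length, to compare genes, the LTBP family summed to 137 ± 4.62 CPM per kb of exon in control and 149 ± 6.02 CPM per kb after BAL101553 (SD, n = 3 each). *Ltbp1* made 41.8 ± 2.58% of that sum in control, *Ltbp3* 39.9 ± 4.58%, *Ltbp4* 17.2 ± 3.53% and *Ltbp2* 1.13 ± 0.204% (SD, n = 3). After BAL101553 the shares were 45.8 ± 5.29%, 32.6 ± 7.18%, 12.8 ± 2.61% and 8.83 ± 1.36% (SD, n = 3), so *Ltbp2* remained the smallest part of the family sum although its own difference was nearly as large as that of the sum. In the libraries labelled astrocytes the family sum was 27.0 ± 0.830 CPM per kb (SD, n = 3). *Ltbp3* and *Ltbp4* made 41.1 ± 2.18% and 38.1 ± 2.73% of it, and *Ltbp1* only 13.4 ± 1.36% (SD, n = 3).

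**Figure D2:**
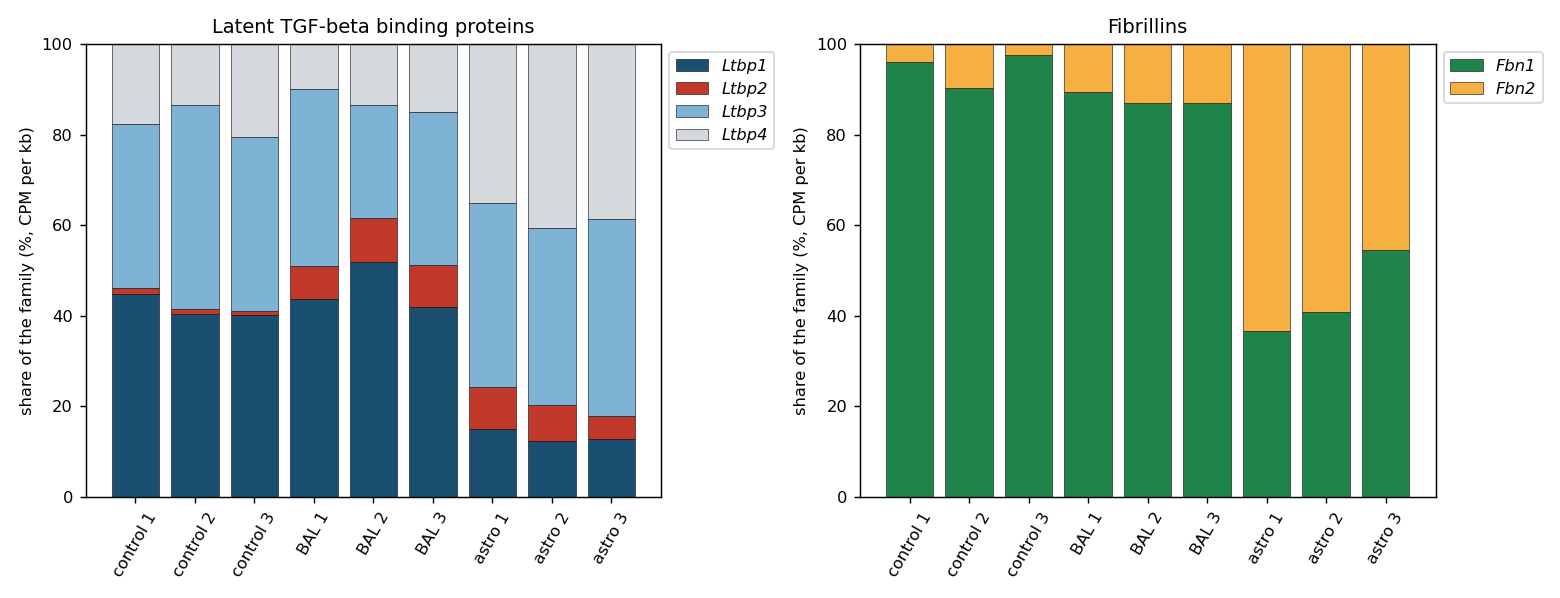
Share (%) of each LTBP gene in the LTBP sum and of each fibrillin gene in the fibrillin sum, in CPM per kb of exon, for each library. *Ltbp2* took 0.953 to 1.35% of the LTBP sum in control and 7.27 to 9.80% after BAL101553, and *Fbn2* took more than *Fbn1* in astrocytes libraries 1 and 2.

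Of the fibrillins, *Fbn1* was the most abundant gene of the set in SB28. *Fbn1* (chr2:125300594-125507993, minus strand), the backbone of adult microfibrils, had 787, 869 and 1032 CPM in control and 1219, 1075 and 1182 CPM after BAL101553. All BAL101553 libraries were above all control libraries, by a log2 fold change of 0.38 (SE 0.12), or 1.30-fold. *Fbn2* (chr18:58008623-58210487, minus strand), the fibrillin of developing tissue, had 35.0, 102 and 27.8 CPM in control and 157, 174 and 194 CPM after BAL101553. Control library 2 was well above the other two and still below every BAL101553 library. The log2 fold change of *Fbn2* was 1.68 (SE 0.44), 2.48 without control library 2 and 1.35 without control library 3. *Fbn2* made 5.35 ± 3.85% of the fibrillin sum per length in control and 12.2 ± 1.40% after BAL101553 (SD, n = 3), while that sum went from 78.0 ± 9.88 to 109 ± 6.07 CPM per kb (SD, n = 3).

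The microfibril-associated genes differed among themselves. *Mfap2* (chr4:141010418-141015984, plus strand) encodes MAGP-1, a small glycoprotein bound along fibrillin. It had 13.7, 8.30 and 3.50 CPM in control and 25.1, 37.1 and 22.2 CPM after BAL101553, with no overlap, a log2 fold change of 1.74 (SE 0.43) and a range of 1.36 to 2.25 when each library was left out. Its relative *Mfap5* (chr6:122505845-122529290, plus strand), which encodes MAGP-2, was at the limit of detection in SB28, with 0, 2 and 1 reads in control and 1, 0 and 2 reads after BAL101553. The 2 groups had 3 reads each, so that no difference was detectable at this depth.

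*Mfap4* (chr11:61485431-61488900, plus strand), which encodes a fibrinogen-related glycoprotein that binds fibrillin and tropoelastin, had 0, 5 and 1 reads in control. After BAL101553 it had 78, 707 and 74 reads, or 2.63, 27.7 and 2.15 CPM. All treated libraries were above all control libraries, but library 2 was 11.6-fold above the mean of the other two. Summed over libraries and scaled to depth, the reads of *Mfap4* after BAL101553 were 117-fold those of control, with a 95% exact interval of 53.5 to 320 that covers counting error only. Without BAL101553 library 2 the ratio was 29.0, with an interval of 13.0 to 80.2. *Mfap4* was picked for this difference, so both intervals describe the counts and are not tests. The fitted log2 fold change was 6.98 with all libraries, 4.81 without BAL101553 library 2 and 8.69 without control library 2, which held 5 of the 6 control reads. In BAL101553 libraries 1 and 3 *Mfap4* lay near its level in the libraries labelled astrocytes, which was 2.14, 2.44 and 2.50 CPM. *Mapk7* overlaps 89 bases of *Mfap4* exons on the other strand. It had 819, 1060 and 879 reads in control and 1260, 897 and 1366 after BAL101553. This gene was chosen here after its values were seen, and whether its reads entered the *Mfap4* counts was not tested.

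*Eln* (chr5:134702593-134747323, minus strand) encodes tropoelastin, the monomer of elastin. It had 1.12, 7.11 and 4.09 CPM in control and 28.7, 210 and 32.6 CPM after BAL101553. As for *Mfap4*, the groups did not overlap and BAL101553 library 2 was high, at 6.85-fold the mean of the other two. The log2 fold change of *Eln* was 4.45 (SE 0.95) with all libraries, 2.89 without BAL101553 library 2 and 5.11 without control library 2. For the other members measured there, library 2 lay between 0.643-fold (*Ltbp3*) and 1.57-fold (*Mfap2*) the mean of BAL101553 libraries 1 and 3, apart from *Mfap5*, which had no reads in it.

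**Figure D3:**
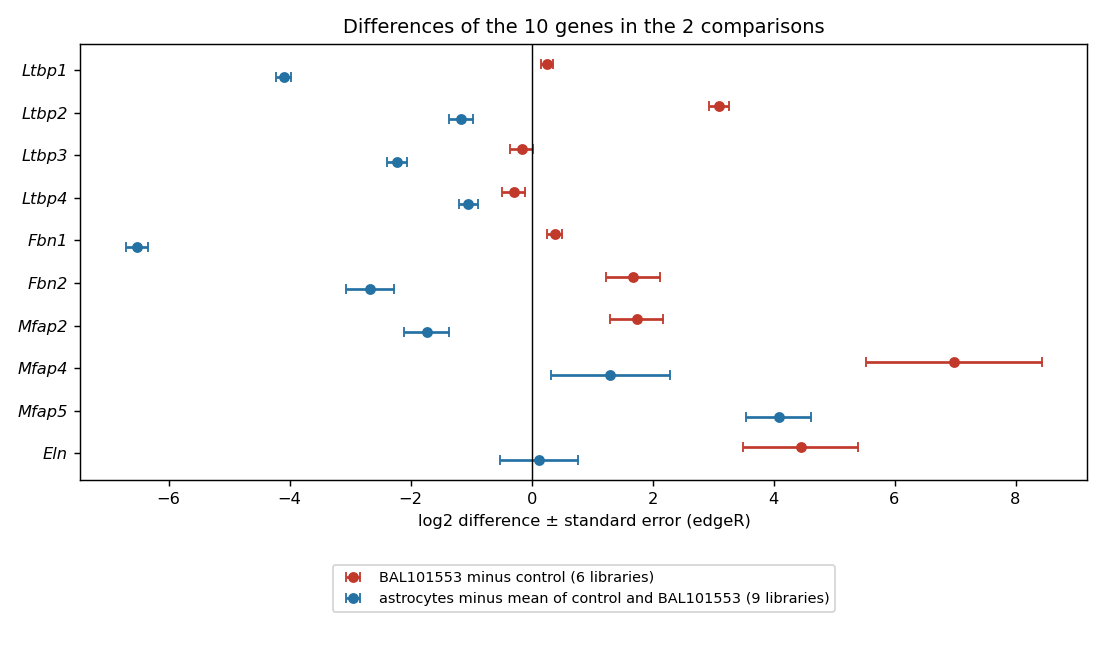
Log2 differences with standard errors for the genes that entered each fit, between BAL101553 and control (9 genes, without *Mfap5*) and between the libraries labelled astrocytes and SB28 (10 genes). *Mfap4*, *Eln* and *Ltbp2* were furthest above 0 in the first comparison, at 6.98 (a fitted value that rests on 6 control reads), 4.45 and 3.09, and *Fbn1* and *Ltbp1* furthest below 0 in the second, at -6.53 and -4.10.

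Across the whole table, edgeR's quasi-likelihood test gave an adjusted p under 0.05 for 8.64% of 12633 genes as higher after BAL101553 and 6.09% as lower. Of the 10 genes described, 9 entered that fit, *Mfap4* only through its BAL101553 libraries. Since the genes were picked from this comparison, their calls are not counted. Groups without overlap are named gene by gene and are not counted, since their share over all genes was not computed.

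Some markers of other cell types differed between the SB28 groups as well. Summed CPM of 8 fibroblast markers, most of it collagen transcripts, was 9126 to 9790 in control and 13878 to 15046 after BAL101553. The fibroblast markers did not share one order over the BAL101553 libraries. In library 2, where *Mfap4* and *Eln* peaked, *Lum*, a keratan sulfate proteoglycan, had 4.42 CPM, against at most 0.40 CPM in the other SB28 libraries. *Ogn*, the proteoglycan osteoglycin, also peaked there, with 5.97, 13.6 and 9.03 CPM in the BAL101553 libraries and 0.268 to 1.34 CPM in control. The collagen genes *Col1a2*, with 3203, 4013 and 2515 CPM, and *Col1a1*, with 5718, 5756 and 5520 CPM, were highest in library 2 as well. *Pdgfra*, with 300, 319 and 330 CPM, was highest in library 3. *Dcn*, with 15.7, 13.3 and 34.2 CPM, and the collagen gene *Col3a1*, with 5803, 4437 and 5470 CPM, were lowest in library 2. *Slc6a13*, a transporter of meningeal fibroblasts, had 1 read in control library 2 and 0 in every other SB28 library. Pericyte and smooth muscle markers summed to 1239 to 1340 CPM in control and 943 to 1325 CPM after BAL101553, and endothelial markers to 739 to 879 and 540 to 658 CPM. In control, *Acta2* and *Cdh5* made up most of these sums. Within the pericyte list, *Pdgfrb*, a receptor of pericytes and fibroblasts, had 216 to 261 CPM in control and 345 to 371 CPM after BAL101553. *Acta2*, of the same list, went the other way, with 689 to 885 CPM in control and 379 to 538 CPM after BAL101553. So did *Rgs5*, also of that list, with at least 2.31 CPM in control and at most 1.42 CPM after BAL101553. *Kcnj8* and *Abcc9*, which define brain pericytes, had at most 0.117 CPM in SB28. In the libraries labelled astrocytes these 2 genes had 28.8 to 37.5 CPM and 77.1 to 106 CPM. The part of other cells in the *Mfap4*, *Eln* and *Ltbp2* values was not tested.

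The order of levels per length set *Fbn1* first in both SB28 groups. In control, *Fbn1* at 73.9 ± 10.3 CPM per kb was followed by *Ltbp1* at 57.2 ± 2.21 and *Ltbp3* at 54.8 ± 8.15 (SD, n = 3), and the latter pair overlapped. *Ltbp4* came next at 23.6 ± 4.46 CPM per kb, then *Mfap2* at 7.01 ± 4.20 and *Fbn2* at 4.15 ± 3.09 CPM per kb, which overlapped (SD, n = 3). *Ltbp2* at 1.55 ± 0.246 and *Eln* at 0.507 ± 0.370 CPM per kb (SD, n = 3) stood apart from their neighbours, and *Mfap4* and *Mfap5* were lowest and overlapped. After BAL101553, *Fbn1* at 95.5 ± 6.19, *Ltbp1* at 68.0 ± 5.21 and *Ltbp3* at 48.7 ± 11.8 CPM per kb (SD, n = 3) no longer overlapped. *Mfap2* at 23.2 ± 6.52 CPM per kb overlapped *Ltbp4* at 19.1 ± 4.22, and *Ltbp2* at 13.1 ± 2.01 overlapped both *Fbn2* at 13.2 ± 1.38 and *Eln* at 11.2 ± 12.8 CPM per kb (SD, n = 3). In the libraries labelled astrocytes, *Ltbp3* at 11.1 ± 0.660 and *Ltbp4* at 10.3 ± 0.441 CPM per kb overlapped at the top, and *Fbn1* came ninth of 10 at 0.913 ± 0.174 CPM per kb (SD, n = 3).

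The comparison of the libraries labelled astrocytes with both SB28 groups, which is not the one the genes were picked from but shares its SB28 libraries, was tested with edgeR's quasi-likelihood test. Of 15408 genes tested, 48.8% were higher and 39.2% lower in the libraries labelled astrocytes at an adjusted p under 0.05. Of the 10 genes described, 3 are given without a test, *Ltbp2* and *Mfap4* because they were picked for their values in the SB28 libraries and *Mfap5* because it passed the filter on low counts only through the group in which it is high. Of the other 7, 6 were lower and *Eln* did not pass. Tissue, cell type and preparation differ together in this comparison and cannot be told apart. Treatment differs in part as well, since the libraries labelled astrocytes carry the label BAL101553 and the control libraries do not. With so large a share of all genes called, the sizes say more than the calls, and the median log2 difference of all genes was 0.24, or 0.46 with library totals in place of TMM.

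*Fbn1* and *Ltbp1* had the largest differences. *Fbn1* had 9.33, 10.5 and 13.4 CPM in the libraries labelled astrocytes, 92.2-fold below SB28, and fell by 6.53 in log2 units (SE 0.18, adjusted p = 1.83e-10, edgeR). *Ltbp1* had 44.7, 35.0 and 36.7 CPM there, a log2 difference of -4.10 (SE 0.12, adjusted p = 2.44e-10, edgeR). Both were below every SB28 library. *Ltbp3* had 103, 93.6 and 105 CPM, a log2 difference of -2.22 (SE 0.17, adjusted p = 3.41e-07, edgeR). *Ltbp4* had 63.4, 69.1 and 66.4 CPM, a log2 difference of -1.05 (SE 0.15, adjusted p = 7.50e-05, edgeR). For both, too, the libraries labelled astrocytes were below every SB28 library. *Fbn2* had 17.5, 16.5 and 12.1 CPM, also without overlap, and fell by 2.67 (SE 0.40, adjusted p = 8.46e-05, edgeR). The difference of *Fbn2* was -3.54 against BAL101553 alone (SE 0.16) and -1.88 against control alone (SE 0.46). *Mfap5* had 18, 14 and 27 reads in the libraries labelled astrocytes against at most 2 in any SB28 library.

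For the other 4 genes, as for the size in *Fbn2*, the size, the call or the direction depended on which SB28 group was set against the libraries labelled astrocytes. *Ltbp2*, at 21.1, 16.9 and 11.0 CPM there, had a log2 difference of -1.17 from SB28 as a whole (SE 0.20). Against BAL101553 alone the difference was -2.75, and against control alone it was 0.33 (SE 0.23), with overlapping libraries. *Mfap2*, at 5.01, 3.71 and 5.16 CPM, was lower than SB28 by -1.74 (SE 0.37, adjusted p = 0.00119, edgeR) and by -0.92 against control alone (adjusted p = 0.0692, edgeR). *Eln*, at 19.3, 22.9 and 21.0 CPM, lay above every control library and below every BAL101553 library. Its log2 difference was 0.12 against SB28 as a whole (SE 0.64, adjusted p = 0.869, edgeR), 2.30 against control (adjusted p = 0.00158, edgeR) and -2.12 against BAL101553. *Mfap4* differed by 1.30 from SB28 as a whole (SE 0.98) and by -2.20 from BAL101553. Without BAL101553 library 2 the differences from SB28 were 2.34 for *Mfap4* and 0.86 for *Eln* (adjusted p = 0.0444, edgeR). *Eln* passed in this 1 of the 9 fits that leave out 1 library.

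The neighbours of the set in the pathway were read in 7 lists of 55 genes, of which 51 were tested between BAL101553 and control. Of these, 14 rose and 6 fell by the edgeR rule given above, by which 8.64% of all genes were higher and 6.09% lower, and 31 did not pass. The median log2 fold change was 0.35 over the 51 genes and 0.016 over all genes tested. Without control library 3, control library 1 or BAL101553 library 3, 7, 9 and 12 of the 51 passed in place of 20. The genes named next that passed in each of the fits leaving out 1 library were *Lox*, *Emilin1*, *Emilin2*, *Adamts10*, *Thsd4*, *Furin* and *Itgb1*. For each of the others that passed with all libraries, the highest adjusted p when 1 library was left out is given with it. The call was lost without control 1 or control 3 for *Adamtsl2*, *Adamtsl3*, *Dcn* and *Lrrc32*, without these or BAL101553 3 for *Tgfb3* and *Tgfbr3*, without these or either of BAL101553 1 and 3 for *Fbln2*, without any control or BAL101553 3 for *Fbln5*, and without any control or BAL101553 1 for *Smad3*. It was lost without control 3 or BAL101553 3 for *Thbs1*, without these or BAL101553 1 for *Ctgf*, and without any library but control 2 for *Efemp1* and *Loxl2*.

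**Figure D4:**
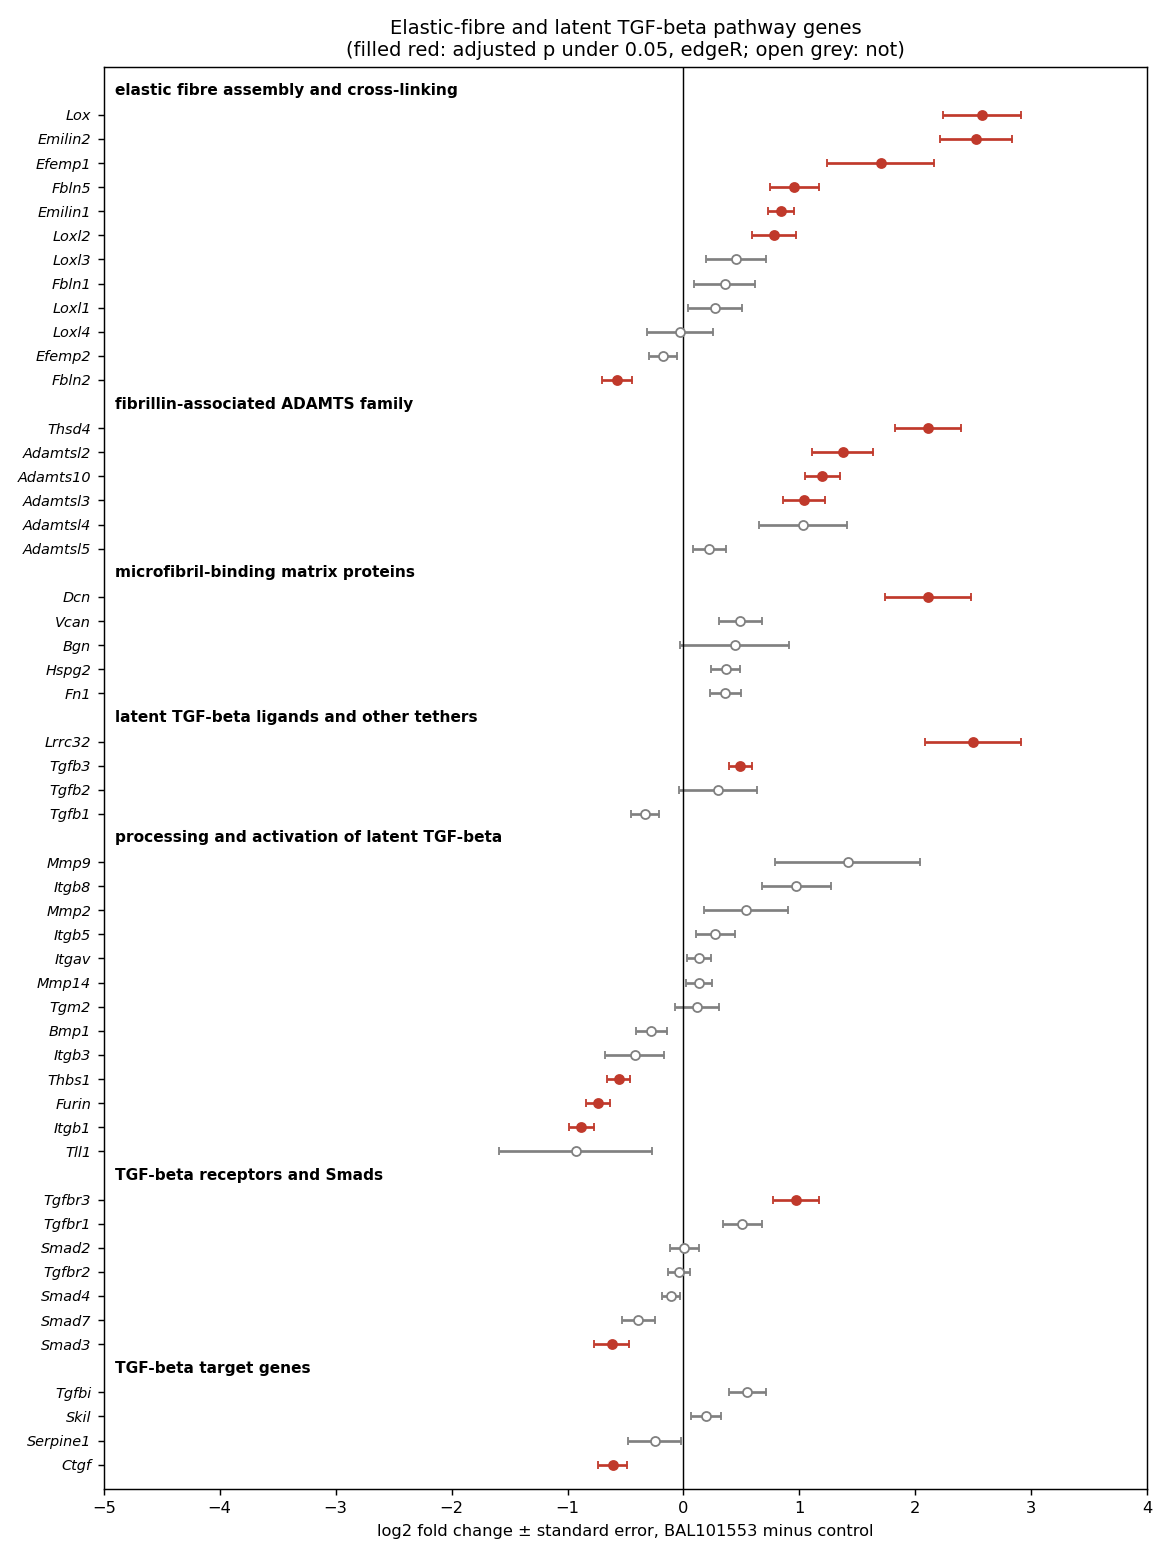
Log2 fold change with standard error of each pathway gene tested between BAL101553 and control, by list, with genes at an adjusted p under 0.05 (edgeR) filled. The filled points lie above 0 for 6 of 12 elastic fibre genes and 4 of 6 ADAMTS family genes, and below 0 for 3 of 13 genes of TGF-β processing and activation.

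Among 12 elastic fibre assembly and cross-linking genes, 6 rose and 1 fell (8.64% and 6.09% of all genes), with a median log2 fold change of 0.62. *Lox*, the lysyl oxidase that cross-links elastin and collagen, had 40.8, 35.1 and 47.9 CPM in control and 381, 141 and 212 CPM after BAL101553, a log2 fold change of 2.57 (SE 0.34, adjusted p = 0.00787, edgeR). Its highest library was BAL101553 library 1, not library 2. *Emilin2*, a microfibril interface glycoprotein, rose by 2.52 (SE 0.31, adjusted p = 0.00728, edgeR), and *Emilin1*, which sits where elastin meets microfibrils, rose by 0.84 (SE 0.11, adjusted p = 0.00795, edgeR). *Efemp1*, which encodes fibulin-3, differed by 1.70 on the log2 scale (adjusted p = 0.0453, up to 0.147 without control library 3, edgeR). *Fbln5*, which encodes the fibulin that carries tropoelastin to microfibrils, went from 27.0 ± 5.13 to 52.1 ± 13.8 CPM (SD, n = 3), a log2 fold change of 0.95 (adjusted p = 0.0274, up to 0.0837 without control library 1, edgeR). *Loxl2*, also a lysyl oxidase, had 0.78 (adjusted p = 0.0363, up to 0.0966 without control library 3, edgeR). The gene that fell was *Fbln2*, named after its values were seen, with a log2 fold change of -0.58 (adjusted p = 0.0271, up to 0.0910 without control library 3, edgeR).

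Of 6 tested genes of the ADAMTS family whose products bind fibrillin, 4 rose and 0 fell (8.64% and 6.09% of all genes), with a median log2 fold change of 1.12. *Thsd4*, which encodes ADAMTSL6, a promoter of fibrillin-1 assembly, had 3.35, 2.68 and 4.13 CPM in control and 9.35, 18.0 and 16.3 CPM after BAL101553, a log2 fold change of 2.11 (SE 0.29, adjusted p = 0.00831, edgeR). *Adamts10*, a fibrillin-binding protease, had 17.5 ± 1.47 CPM in control and 39.9 ± 7.22 CPM after BAL101553 (SD, n = 3), a log2 fold change of 1.20 (adjusted p = 0.00728, edgeR). *Adamtsl2*, whose product also binds LTBP-1, had 1.37 (adjusted p = 0.0185, up to 0.0828 without control library 3, edgeR) and *Adamtsl3* 1.04 (adjusted p = 0.0141, up to 0.0624 without control library 3, edgeR). Among 5 matrix proteins that bind microfibrils, 1 rose and 0 fell (8.64% and 6.09% of all genes), with a median log2 fold change of 0.44. *Dcn*, the proteoglycan decorin, which is also among the fibroblast markers, was the gene that passed, with a log2 fold change of 2.11 (adjusted p = 0.0148, up to 0.0650 without control library 3, edgeR).

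Of 4 tested genes for latent TGF-β and its other tethers, 2 rose and 0 fell (8.64% and 6.09% of all genes), with a median log2 fold change of 0.39. *Tgfb1* had 72.6 ± 9.44 CPM in control and 57.3 ± 5.09 CPM after BAL101553 (SD, n = 3), a log2 fold change of -0.33 (SE 0.12, adjusted p = 0.0970, edgeR), and *Tgfb2* had 0.30 (SE 0.34, adjusted p = 0.565, edgeR). *Tgfb3* had 97.8, 105 and 98.7 CPM in control and 129, 136 and 156 CPM after BAL101553, a log2 fold change of 0.49 (SE 0.096, adjusted p = 0.0194, up to 0.0859 without control library 3, edgeR). *Lrrc32*, which encodes GARP, a cell-surface tether for latent TGF-β used in place of an LTBP, had 3.42 ± 0.744 CPM in control and 19.3 ± 11.6 CPM after BAL101553 (SD, n = 3), a log2 fold change of 2.50 (adjusted p = 0.0133, up to 0.0560 without control library 3, edgeR).

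Among 13 genes for processing and activation of latent TGF-β, 0 rose and 3 fell (8.64% and 6.09% of all genes), with a median log2 fold change of 0.11. *Itgb1*, the integrin β1 chain, went from 4317 ± 452 to 2332 ± 89.8 CPM (SD, n = 3), a log2 fold change of -0.88 (SE 0.11, adjusted p = 0.00728, edgeR). *Furin*, the protease that cleaves the TGF-β propeptide, fell by 0.73 (SE 0.10, adjusted p = 0.00906, edgeR), and *Thbs1*, which encodes the activator thrombospondin-1, had -0.56 (adjusted p = 0.0160, up to 0.0734 without control library 3 and 0.173 with all 9 libraries in one model, edgeR). Among 7 receptor and Smad genes, 1 rose and 1 fell (8.64% and 6.09% of all genes), with a median log2 fold change of -0.038. *Tgfbr3*, the co-receptor betaglycan, differed by 0.97 on the log2 scale (adjusted p = 0.0223, up to 0.0908 without control library 3, edgeR) and *Smad3*, a signal transducer, by -0.62 (adjusted p = 0.0331, up to 0.112 without control library 3 and 0.0652 with library totals, edgeR). Of 4 TGF-β target genes, 0 rose and 1 fell (8.64% and 6.09% of all genes), with a median log2 fold change of -0.028. The gene that fell was *Ctgf*, with -0.61 (adjusted p = 0.0229, up to 0.0693 without BAL101553 library 3, edgeR). *Tgfbi*, named after its values were seen, went the other way and did not pass, with 0.55 (SE 0.16, adjusted p = 0.0547, edgeR).

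The genes whose profiles over the 9 libraries were most like that of *Ltbp2* were found by the root mean square difference of log2 CPM, each profile centred on its mean, among 15407 other genes. They were *Snord52* (0.49), *Fendrr* (0.51), *Cpxm1* (0.55), *Snord72* (0.55) and *Ptprv* (0.59), of which *Cpxm1* was the one above 10 CPM in every BAL101553 library. Within the set, *Mfap2* came closest to *Ltbp2*, at rank 22 with a difference of 0.72, followed by *Fbn2* at rank 107 with 0.93. For *Mfap4* the closest gene of the whole table was *Eln*, with a difference of 0.77. *Aspn* (0.86), *Adam33* (1.0), *AI593442* (1.06) and *Oas2* (1.17) came next, and like *Mfap4* each had its highest level in BAL101553 library 2. These differences describe likeness and carry no test, since the 9 points share libraries and groups.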

How the data were processed

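The authors prepared stranded RNA libraries, aligned reads to mm10 with TopHat and used HTSeq 0.6.1 and featureCounts for counting (build and version from the submitters' processing notes). The deposited values of the 9 libraries are raw counts per gene. Which counter made the table, the annotation and the strand setting are not given in the sources used here. In the table, 27 names had been turned into dates, and these rows were kept in library sizes and tests.

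Counts were analysed in R 4.3.3 with edgeR 4.0.16 (filterByExpr, TMM and the two-sided quasi-likelihood test, with p-values adjusted by Benjamini-Hochberg over every gene in the fit and a threshold of 0.05), limma 3.58.1 and DESeq2 1.42.0. Control and BAL101553 were compared within their 6 libraries, and astrocytes with the mean of both SB28 groups in all 9. Standard errors are the log2 fold change over the square root of F. Likeness used a prior count of 2. Per-length values divide by the union of exons in GENCODE vM21.

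The members, the lists and the tests were chosen with earlier results of these data known. All members were named; of the pathway, *Tgfb1*, *Tgfb2*, *Tgfb3*, *Lox* and *Fbln5* always, and up to 4 genes per list with the largest absolute log2 fold change past the threshold; and the 5 profiles most like *Ltbp2* and *Mfap4*. Alternatives were DESeq2, other scalings and count filters (a minimum of 1 count in any library or of 10 in each), 1 model for all libraries, a replicate block, each SB28 group alone and each library left out. Tests were tested on simulated data. Libraries of a group differed by more than sampling noise. The paper gives 2 ex vivo samples per group and calls them biological replicates, whereas 3 numbered libraries per group are used here. The paper names a different series for its sequence data, and whether it used any of these libraries is not stated. Since no source says that all 3 came from separate mice, p-values measure the spread between these libraries, which may be technical.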

Additional observations from a re-analysis of the deposited data

How the results depend on the processing

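Between BAL101553 and control, 1860 genes passed in edgeR, 2832 with DESeq2 and 3022 with all 9 libraries in one model. Leaving out 1 library gave between 193 (without control 3) and 1712 (without BAL101553 2) genes, with 458 without control 1, 668 without BAL101553 3 and 1133 without BAL101553 1. For the pathway genes this count lay between 7 and 20, against 20 in the report and 26 with DESeq2. With library totals in place of TMM, 77.4% of the calls were higher and 22.6% lower, against 58.7% and 41.3%. Of the 7 members given with a test between astrocytes and SB28, 6 were past the threshold. These 6 also passed in each of the 9 fits that leave out 1 library. Signs turned for *Ltbp2* against control alone (0.33), for *Mfap4* against BAL101553 alone (-2.20) and for *Eln* against BAL101553 alone (-2.12) and without control 1 (-0.14), BAL101553 1 (-0.10) or BAL101553 3 (-0.093). Without BAL101553 2, the difference was 0.86 for *Eln* and 2.34 for *Mfap4*. *Eln* passed in this 1 of the 9 fits that leave out 1 library, and *Mfap4* is given without a test. *Thbs1* lost its call with all 9 libraries in one model and *Smad3* with library totals. Between astrocytes and SB28, *Ltbp1*, *Ltbp3*, *Ltbp4*, *Fbn1* and *Fbn2* kept their direction and their side of the threshold in all alternatives. The causes were not tested, and the fits that leave out a library also hold fewer samples. No label says that libraries with the same number belong together. The correlation of their deviations was 0.102, 0.0060 and 0.113 for the 3 pairs of control and BAL101553 and between -0.0097 and 0.055 for pairs with astrocytes. Not every pair was over 0.1, and control 2 correlated better with BAL101553 3 (0.053) than with BAL101553 2, so the numbers were not used as pairs. With the replicate block, 1371 genes and 22 pathway genes passed between BAL101553 and control. Between astrocytes and SB28 the same 6 of the 7 members given with a test passed. Depth limits *Mfap5* in SB28 and *Mfap4* in control, where most libraries had 0 to 2 reads.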
